A study of Rattus norvegicus with 8 samples.

Results

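The nuclear-coded subunits of oxidative phosphorylation were read on every probe that RefSeq assigns to a gene for a subunit of respiratory complexes I to IV or of ATP synthase, or to cytochrome c, by symbol and without pseudogenes. The arrays carried 94 such probes for 76 genes, of 15154 gene symbols in all, and 75 of the 76 genes passed the filter on dim probes and were tested among 15203 genes and unnamed features. The liver RNA came from 4 PFOS rats, fed 50 mg/kg of potassium perfluorooctanesulfonate (a fluorinated surfactant) in the diet, and from 4 control rats on the control diet. Both groups were adult male Sprague-Dawley rats kept on their diet for 28 days, with the food freely available. Each rat had its own two-colour Agilent array, with liver RNA in Cy5 (red) and a universal rat reference RNA in Cy3 (green). Unless a channel is named, values below are log2 ratios of Cy5 over Cy3 after normalization within each array. A ratio of 0 thus lies on that array's own trend for spots of like brightness. A change is the PFOS mean minus the control mean.

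The respiratory chain passes electrons from NADH (complex I) and succinate (complex II) through coenzyme Q, complex III and cytochrome c to oxygen at complex IV, and the proton gradient this builds drives ATP synthase, complex V. A few subunits of complexes I, III, IV and V are coded by mitochondrial DNA and all others by nuclear genes, whose products are imported and assembled with them. In liver the chain also reoxidises the carriers reduced by fatty acid oxidation. Complex I gave 32 of the genes, complex II 4, complex III 8, complex IV 17, complex V 14, and cytochrome c 1 (Cycs). Ndufa4 was placed in complex IV, of which it is a subunit despite its name. The subunits coded by mitochondrial DNA were not analysed here. Of the 111 protein-coding RefSeq symbols covered, 35 had no matched probe and were not analysed either. The names of 13 of these do not mark a like copy of another gene, among them Cyc1, Ndufa13, Ndufs6 and Atp5mc3.

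Promoters of 67 of the 76 genes, from RefSeq on the GRCr8 build, ran from 250 bases before the annotated start to 50 bases after it. Short motifs of factors known to act at respiratory chain genes were searched on both strands, namely the NRF1 core GCATGCGC, the ETS and GABP motif CCGGAAGT and the YY1 motif AAGATGGCG. The NRF1 core is nearly its own reverse complement, so 1 place can match on both strands. The promoters of 3 genes are shown, namely Uqcrh, the gene with the lowest change, Cox4i1, the gene with the highest, and Uqcrc1, the highest of complex III and one that holds 2 of the motifs. The matches are in capitals, on the strand printed or as the reverse complement.
Uqcrh (chr5:134790833-134791132, minus strand): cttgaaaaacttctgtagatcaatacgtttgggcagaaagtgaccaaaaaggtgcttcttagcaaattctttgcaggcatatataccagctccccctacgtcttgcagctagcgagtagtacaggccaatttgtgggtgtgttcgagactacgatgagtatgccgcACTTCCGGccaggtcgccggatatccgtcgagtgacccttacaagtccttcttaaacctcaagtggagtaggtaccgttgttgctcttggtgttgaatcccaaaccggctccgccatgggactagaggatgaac
Cox4i1 (chr19:65630133-65630432, plus strand): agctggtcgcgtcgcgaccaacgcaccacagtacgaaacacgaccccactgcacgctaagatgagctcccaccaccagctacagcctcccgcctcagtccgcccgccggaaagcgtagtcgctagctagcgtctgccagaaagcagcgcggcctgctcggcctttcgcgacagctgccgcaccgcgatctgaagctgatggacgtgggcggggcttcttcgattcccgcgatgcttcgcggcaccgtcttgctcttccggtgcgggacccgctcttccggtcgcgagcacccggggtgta
Uqcrc1 (chr8:118467973-118468272, plus strand): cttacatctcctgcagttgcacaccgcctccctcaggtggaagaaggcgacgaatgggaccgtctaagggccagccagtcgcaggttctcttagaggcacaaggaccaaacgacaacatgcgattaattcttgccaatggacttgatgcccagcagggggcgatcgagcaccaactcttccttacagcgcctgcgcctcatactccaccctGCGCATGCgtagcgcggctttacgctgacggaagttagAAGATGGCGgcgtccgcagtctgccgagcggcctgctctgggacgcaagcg
The Uqcrh window held 1 ETS and GABP match, at position -84 from the start, and the Uqcrc1 window held 1 NRF1 match at position -39 and 1 YY1 match at position -1. The Cox4i1 window held none of the 3 motifs as spelled here.

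At least 1 of the 3 motifs stood in 23 of the 67 promoters (34.3%), against 15.6% of the promoters of 7926 tested genes and 7.53% of all 33469 promoters in the table. The NRF1 core was in 10 (14.9%, against 4.84% of tested genes' promoters), the ETS and GABP motif in 7 (10.4%, against 8.45%) and the YY1 motif in 8 (11.9%, against 3.48%). The 22 tested members with a motif had a median change of -0.07 (-0.33 to 0.24), and the 44 without one had a median of -0.03 (-0.30 to 0.44). These ranges overlap over most of their length, and a match of letters does not show binding.

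The 8 arrays lay on 1 slide and were scanned on 1 date. The 4 arrays of slide row 1, which held PFOS 1 and 2 and control 1 and 2, had median Cy5 signals of 154.5 to 160 scanner units, and the 4 of row 2 had 116 to 138. Local background was 71 to 75 units, and 50.3% to 59.1% of probes stood well above it. The 9 hepatocyte markers were all measured, with median ratios of 7.73 in PFOS and 7.66 in control, while 3 of 4 striated muscle markers (Ckm, Myh4 and Tnnt3) and both adipocyte markers on the arrays failed the filter. How precise a change is rests on the number of arrays. A p-value sets the group difference against the spread between arrays, 1 per rat, so rat and array differences are held together in it.

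The subunit mRNAs as a set were close to level between the diets. Of the 75 tested members 1 passed the test (1.33%), against 3.97% of all features (limma, Benjamini-Hochberg adjusted p under 0.05 over all 15203 features). It was Uqcrh, which fell in PFOS. None was higher in PFOS by this test, against 1.83% of all features, and lower calls made up 2.14% of all features. At an unadjusted p under 0.05, 3 members were higher in PFOS, against 9.00% of all features, and 4 were lower, against 10.9% (9.33% of members together, against 19.9%). The median change was -0.03, beside -0.01 over all features, with 28 members (37.3%) above 0, against 47.7% of all features, and 47 (62.7%) below it, against 52.3%. The changes ran from -0.33 to 0.44.

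The members' changes lay closer together than those of the array as a whole. Their standard deviation was 0.14, against 0.32 over all features, and 5 of 75 changed by over 0.3 in size (6.67%, against 18.0%). The 95% interval of the change stayed within 1.5-fold either way for 73 members (97.3%, against 78.8%) and within 1.25-fold for 46 (61.3%, against 31.9%). This was not particular to the subunits. The enzymes of the citric acid cycle, read below, had a standard deviation of 0.12, with 92.9% within 1.5-fold and 64.3% within 1.25-fold. The other lists read below had standard deviations of 0.18 (assembly factors), 0.24 (regulators) and 0.37 (other electron entry and coupling). The part of probe brightness was not tested. The median standard error was 0.09 for the members and 0.11 for all features. The normalized ratio of liver to reference RNA was mostly above 0. It was so for 71 of 75 members on every array (94.7%, against 44.8%), with median ratios of 1.12 in PFOS and 1.16 in control. Whole-liver RNA was measured, so fewer cells of a type and less RNA per cell cannot be told apart.

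**Figure D1:**
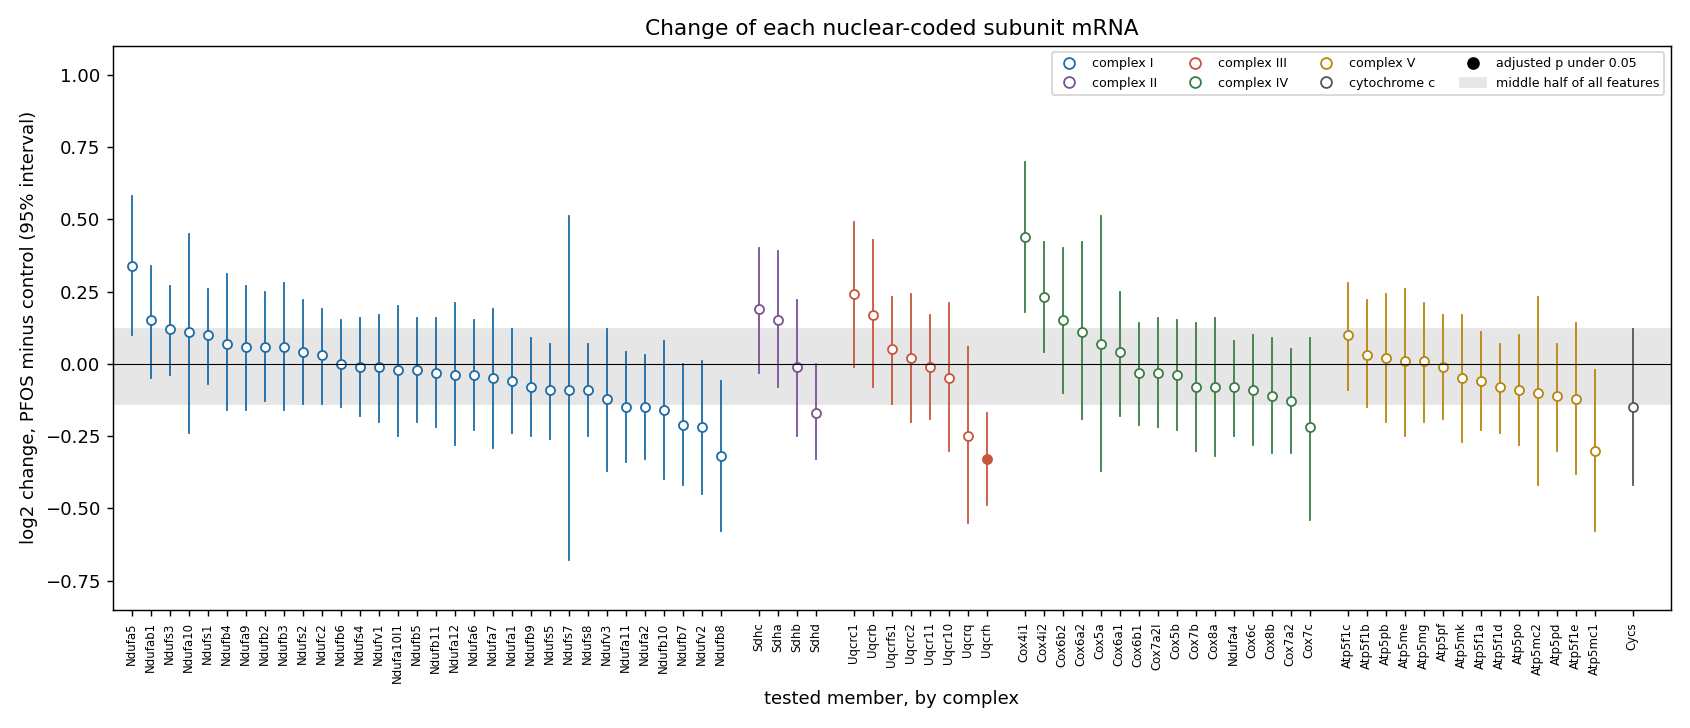
Log2 change (PFOS minus control, y axis) of each of the 75 tested subunit genes, grouped by complex and ordered by size, with 95% intervals as vertical lines. The filled point is Uqcrh, the gene that passed the test, at -0.33, and the grey band from -0.14 to 0.12 is the middle of the changes of all features, between their quartiles.

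Complex III carries electrons from coenzyme Q to cytochrome c. Uqcrh, its hinge protein, which sits beside cytochrome c1, had ratios of 0.38, 0.39, 0.48 and 0.37 in PFOS rats 1 to 4, against 0.81, 0.68, 0.78 and 0.68 in control rats 1 to 4. All PFOS values were below all control values. Uqcrh fell 1.26-fold in PFOS, a change of -0.33 (SE 0.07, 95% interval -0.49 to -0.17, limma adjusted p = 0.0402). The liver channel alone gave -0.34 (limma adjusted p = 0.0156), the 1 member called there (4.69% of all features were), and the reference channel alone gave 0.01, with no member called (0.0789% of all features were, 12 of them). The direction held in all 25 other settings tried, at -0.36 to -0.28, but the call held in 9 of them. It was lost without any 1 of the 8 arrays (adjusted p = 0.0615 to 0.105), with slide row as a block (adjusted p = 0.0508), and within each slide row, where the change was -0.36 in row 1 and -0.30 in row 2.

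The other complex III subunits stood on both sides of 0, and the complex had a median change of 0.00. Uqcrc1, a core protein of the matrix side, had 1.09, 1.26, 0.77 and 1.07 in PFOS, against 0.87, 0.83, 0.67 and 0.85 in control, and its change of 0.24 (SE 0.11, limma adjusted p = 0.266) came with 1 PFOS array, PFOS 3, inside the control range. Uqcrq, a small subunit of the membrane part, had 0.76, 0.98, 0.46 and 0.48 in PFOS, against 1.05, 0.97, 0.69 and 0.97 in control (-0.25, SE 0.14). Its only probe had 1 spot and was dim, with a mean log2 Cy5 of 7.1, and the liver channel alone gave -0.12. Neither Uqcrc1 nor Uqcrq passed the test. Uqcrb, another small subunit, was at 0.17, and the Rieske iron-sulfur protein Uqcrfs1 and the second core protein Uqcrc2 were at 0.05 and 0.02. The slide rows alone gave medians of 0.10 (row 1) and -0.09 (row 2) for the complex.

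Complex I, the NADH dehydrogenase, had no called member among 32, a median change of -0.03 and a range of -0.32 to 0.34. At an unadjusted p under 0.05 in limma, 1 was higher (Ndufa5) and 1 lower (Ndufb8), together 6.25%, against 19.9% of all features. Its 7 core subunits, which carry the flavin and the iron-sulfur clusters, had a median of -0.01, and its 25 accessory subunits -0.03. Ndufa5, an accessory subunit of the matrix arm, had 1.05, 1.40, 1.34 and 1.40 in PFOS, against 1.00, 1.07, 0.77 and 0.97 in control. PFOS 1 lay within the control range and the other PFOS arrays above it, for a change of 0.34 (SE 0.11, 95% interval 0.10 to 0.58, limma adjusted p = 0.119).

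Ndufb8, an accessory subunit of the membrane arm, stood at the other end of complex I. It had 0.50, 0.94, 0.54 and 0.76 in PFOS, against 1.15, 1.01, 0.86 and 1.00 in control, with PFOS 2 inside the control range. The change was -0.32 (SE 0.11, limma adjusted p = 0.167). The second lowest change of the complex was that of Ndufv2, a core iron-sulfur subunit of the NADH-binding module, at -0.22 (adjusted p = 0.275), and the second highest that of Ndufab1, the mitochondrial acyl carrier protein, at 0.15 (adjusted p = 0.379). A dimmer second probe of Ndufab1, well above background on 4 arrays, gave -0.05.

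Groups that did not overlap were seen for 7 members in all (9.33%, against 12.8% of all features), 4 higher in PFOS (5.91% of all features were) and 3 lower (6.89% of all features were). In complex I these were Ndufab1, Ndufs3 and Ndufa11. The groups of Ndufab1 nearly met, with PFOS 1 and control 2 both at 1.23 after rounding. Ndufs3, a core subunit, had 1.58, 1.49, 1.51 and 1.53 in PFOS, against 1.46, 1.45, 1.35 and 1.38 in control, a change of 0.12 (SE 0.07, limma adjusted p = 0.377). Ndufa11, an accessory subunit of the membrane arm, had 1.07, 1.28, 1.33 and 1.34 in PFOS, against 1.36, 1.39, 1.41 and 1.47 in control (-0.15, SE 0.08, adjusted p = 0.345). Neither passed the test. Ndufs3 and Ndufa11 were chosen for mention after their values were seen.

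**Figure D2:**
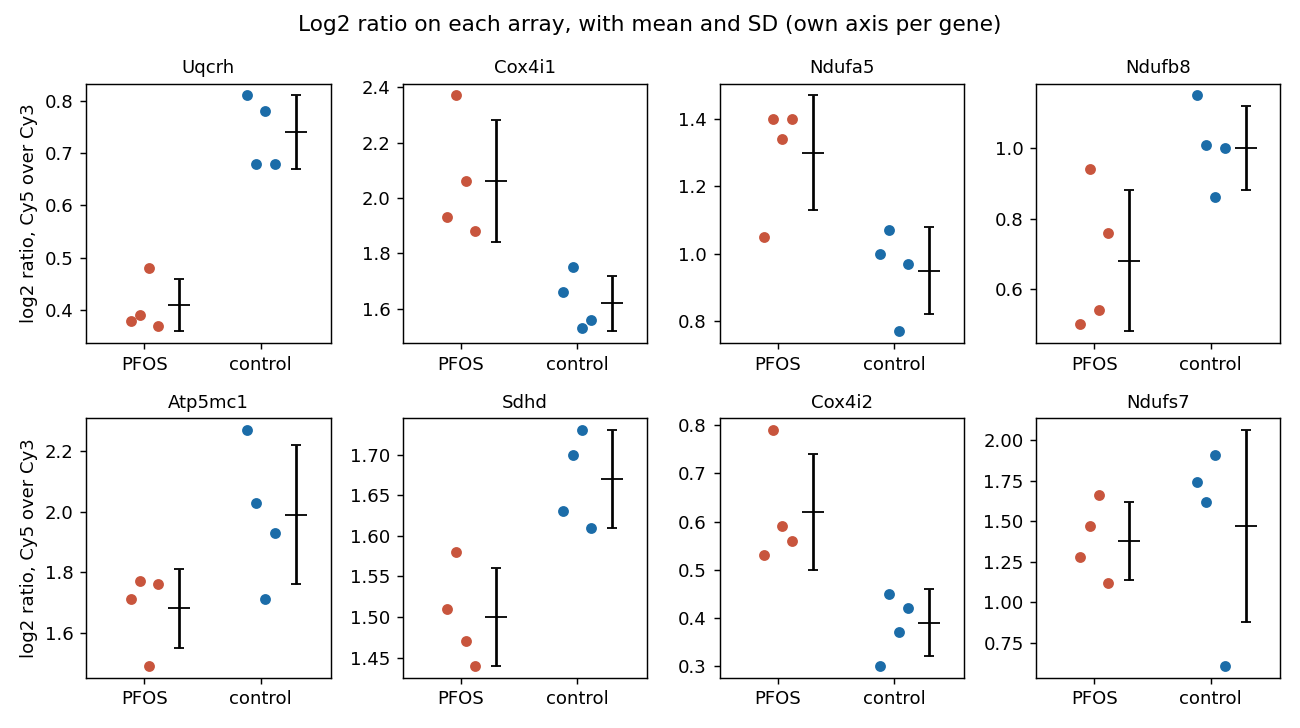
Log2 ratio of Cy5 over Cy3 (y axis, own scale per gene) on each of 4 PFOS arrays (left in each panel) and 4 control arrays (right) for 8 subunit genes, with the group mean and SD as a bar beside the points. Uqcrh, Cox4i1, Cox4i2 and Sdhd show groups that do not overlap, and Ndufs7 shows control 4 at 0.61, far below the other control arrays.

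The standard error was largest for Ndufs7, an iron-sulfur subunit next to the coenzyme Q site, at 0.26. It had 1.28, 1.47, 1.66 and 1.12 in PFOS, against 1.74, 1.62, 1.91 and 0.61 in control, so that control 4 was below every other array. Its change was -0.09 over all arrays and -0.37 without control 4. Cox5a, a complex IV subunit, likewise had 0.15 on control 4, against 0.82 to 1.05 on the other control arrays (change 0.07, SE 0.20). Ndufs7 and Cox5a too were picked out after their values were seen.

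Complex II, succinate dehydrogenase, is coded wholly in the nucleus and also works in the citric acid cycle. None of its 4 subunits passed the test in limma. At an unadjusted p under 0.05, 1 (Sdhd) was lower in PFOS (25%, against 19.9% of all features). Sdhd, a membrane anchor that helps bind coenzyme Q, had 1.51, 1.58, 1.47 and 1.44 in PFOS, against 1.63, 1.70, 1.73 and 1.61 in control. Its groups did not overlap, and its change was -0.17 (SE 0.07, limma adjusted p = 0.238). The other anchor, Sdhc, had 1.53, 1.62, 1.62 and 1.58 in PFOS, against 1.17, 1.49, 1.37 and 1.57 in control (0.19, SE 0.10, adjusted p = 0.314), with PFOS 1 below control 4. The 2 anchors thus stood on opposite sides of 0. The flavoprotein Sdha was at 0.15 (SE 0.10) and the iron-sulfur protein Sdhb at -0.01 (SE 0.10). The sign of Sdhb was kept in 16 of 25 settings. The median of the complex was 0.07.

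Complex IV, cytochrome c oxidase, reduces oxygen, and several of its nuclear subunits exist as isoforms of different tissues. None of the 16 tested members passed the test in limma, and the median change was -0.04. At an unadjusted p under 0.05, 2 (Cox4i1 and Cox4i2) were higher in PFOS (12.5%, against 19.9% of all features). Cox4i1, the isoform of subunit 4 found in most tissues, had 1.93, 2.37, 2.06 and 1.88 in PFOS, against 1.66, 1.75, 1.53 and 1.56 in control. Its groups did not overlap, and its change was 0.44 (SE 0.12, 95% interval 0.18 to 0.70, limma adjusted p = 0.0768). Its reference channel alone gave -0.12 and its liver channel alone 0.26, and no setting of 25 called it (0.26 to 0.50, adjusted p = 0.0638 to 0.398). Reference RNA was the same on every array, and the part of that difference in the ratio was not tested.

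Cox4i2, the other isoform of subunit 4, known for its expression in lung, had 0.53, 0.79, 0.59 and 0.56 in PFOS, against 0.30, 0.45, 0.37 and 0.42 in control. Here too every PFOS value was above every control value, for a change of 0.23 (SE 0.08, limma adjusted p = 0.174). The isoforms known from heart and skeletal muscle were dim. Cox6a2 was well above background on 2 of 4 PFOS and 2 of 4 control arrays (change 0.11, SE 0.14), and Cox8b on 1 of 4 PFOS and 3 of 4 control arrays (-0.11, SE 0.09). Cox6b2, known from testis, was at 0.15 (SE 0.11), with 0.00 in the liver channel alone. Cox8c was not well above background on any of the 8 arrays and was not tested.

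The common subunits of complex IV other than Cox4i1 stood near or below 0. The 12 tested common subunits had a median of -0.06, with 3 above 0 and 9 below. Cox7c, a small subunit, had the lowest change of the complex, -0.22 (SE 0.14, limma adjusted p = 0.408), with 0.66, 0.91, 0.45 and 0.89 in PFOS, against 0.82, 1.27, 0.81 and 0.91 in control. It was well above background on 3 of 4 PFOS arrays. Cox7a2, the isoform of subunit 7a that liver uses, was at -0.13 (SE 0.08).

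Complex V, ATP synthase, had 14 tested members, none called, with a median of -0.05, 5 above 0 and 9 below, and no member whose groups stood apart. In limma 1, Atp5mc1, was lower in PFOS at an unadjusted p under 0.05 (7.14%, against 19.9% of all features). Atp5mc1, one of the genes for the c subunit of the rotating ring, had 1.71, 1.77, 1.49 and 1.76 in PFOS, against 2.27, 2.03, 1.71 and 1.93 in control. Control 3 lay within the PFOS range and the other control arrays above it, for a change of -0.30 (SE 0.12, 95% interval -0.58 to -0.02, limma adjusted p = 0.218). Atp5mc2, which codes the same mature subunit, was at -0.10 (SE 0.14). The F1 head, where ATP is made, was close to level, with the beta subunit Atp5f1b at 0.03 (SE 0.08), the gamma subunit Atp5f1c at 0.10 (SE 0.08) and the epsilon subunit Atp5f1e at -0.12 (SE 0.12). The 4 subunits of the peripheral stalk, which holds the head still, had changes of -0.11 to 0.02.

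Cycs, the carrier between complexes III and IV and a signal in cell death, had 1.16, 1.14, 1.13 and 1.07 in PFOS, against 0.99, 1.56, 1.17 and 1.38 in control. The PFOS arrays lay close together inside the control range, and the change was -0.15 (SE 0.12, limma adjusted p = 0.516). Its second probe gave -0.16.

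Taken by array, the medians of the members differed little. The 75 members had medians of 1.13, 1.17, 1.14 and 1.07 on PFOS arrays 1 to 4, against 1.15, 1.21, 1.17 and 1.16 on control arrays 1 to 4. The groups overlapped. Complex I had medians of 1.17, 1.19, 1.16 and 1.11 in PFOS, against 1.20, 1.23, 1.22 and 1.20 in control. These did not overlap, though the nearest arrays of the groups were close, and the median change of the complex was 0.02 with median centring and 0.01 with scaling between arrays, so the direction turns with the scaling. Complex II had the highest medians, 1.59 to 1.65 in PFOS and 1.59 to 1.68 in control, but a ratio to a reference RNA gives no order of mRNA level between genes. Complex III on PFOS 3 (0.77) and complex IV on PFOS 3 (0.69) were the lowest medians of any complex.

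**Figure D3:**
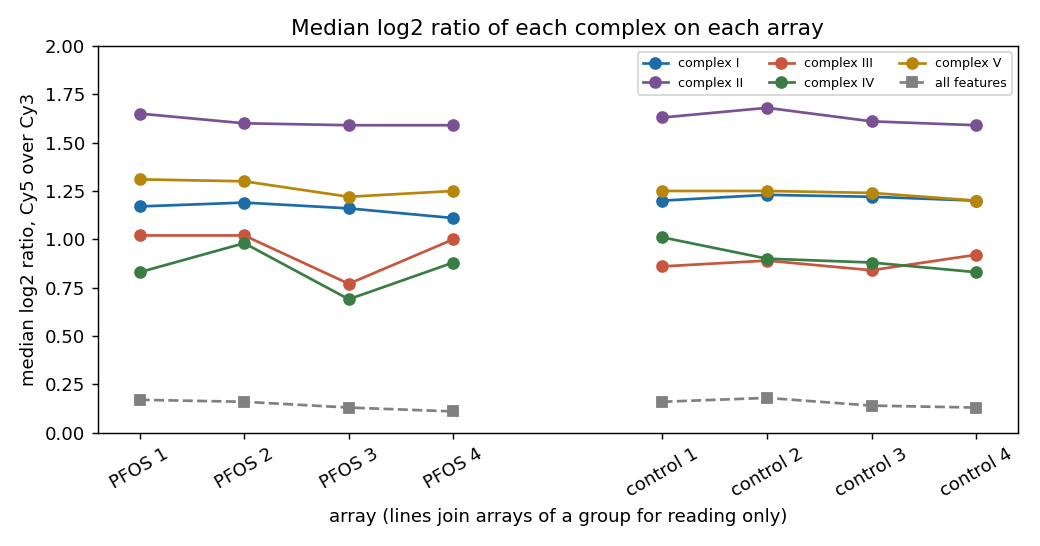
Median log2 ratio of Cy5 over Cy3 (y axis) of the tested members of each complex and of all features on each array, with the 4 PFOS arrays left of the 4 control arrays. The medians of complexes II to V overlap between the groups, those of complex I do not (1.11 to 1.19 in PFOS, 1.20 to 1.23 in control), and complexes III and IV dip on PFOS 3, to 0.77 and 0.69.

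Where a gene had several probes, they mostly gave like values. This was so for 15 members, whose probes never disagreed on the call, differed by a median of 0.08 and had opposite signs in 5. The widest gap was 0.53, for Ndufv3, an accessory subunit of the NADH-binding module. Its 2 bright probes gave -0.12 and -0.22, and a dimmer probe with 10 spots gave 0.31 (SE 0.10, limma adjusted p = 0.131), with 0.89, 0.66, 0.75 and 0.95 in PFOS, against 0.61, 0.59, 0.32 and 0.50 in control. That probe separated the groups in the opposite direction. For Uqcrb the gap was 0.36, with 0.17 for the probe used and -0.19 for a dimmer one. RefSeq holds 98 pseudogenes whose symbols begin like those of the members. Counted separately, 38 of the 76 members have a pseudogene named after them. Signal from such copies cannot be told apart from that of the gene.

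Genes around the chain were read from lists in the same fit. Of 17 tested regulators of mitochondrial transcription and biogenesis 1 rose and none fell (5.88% called, against 3.97% of all features). In this list 15 genes were above 0 (88.2%, against 47.7% of all features), with a median of 0.11, beside -0.01 over all features. Pprc1, the PGC-1-related coactivator, had -0.90, -1.03, -1.22 and -1.11 in PFOS, against -1.82, -1.98, -2.11 and -1.79 in control, and rose 1.82-fold (change 0.86, SE 0.10, limma adjusted p = 0.00321). Nrf1, which binds the core motif searched above, had -0.68, -0.62, -0.67 and -0.46 in PFOS, against -1.01, -0.88, -0.86 and -0.85 in control. Its groups did not overlap, but its change of 0.29 (SE 0.08, adjusted p = 0.0858) did not pass. Yy1 was at 0.19, Gabpa at -0.10 and Tfam, which packages mitochondrial DNA and starts its transcription, at 0.16. The coactivator Ppargc1a did not pass the filter on dim probes.

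Of 37 tested assembly factors, which build the complexes but are not part of them, 1 rose and none fell, with a median of 0.04. That is 2.70% called, against 3.97% of all features. Acad9, a complex I assembly factor related to the acyl-CoA dehydrogenases, had 1.73, 1.62, 1.49 and 1.55 in PFOS, against 1.07, 1.27, 1.24 and 1.20 in control, and rose 1.32-fold (change 0.40, SE 0.08, limma adjusted p = 0.0324). The call held without 1 of the 8 arrays only and in 13 of 25 settings. Ndufaf4, also of complex I, was at 0.41 (SE 0.11, adjusted p = 0.0769), with no overlap of the groups. The list was split, with 22 genes above 0 and 15 below. Groups did not overlap for 4 genes higher in PFOS and 3 lower (18.9%, against 12.8% of all features).

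Of the 14 enzymes of the citric acid cycle other than complex II, 1 rose and none fell (7.14% called, against 3.97% of all features). Of them 12 were above 0 (85.7%, against 47.7% of all features), with a median of 0.08. Suclg1, a subunit of succinyl-CoA ligase, had 2.21, 2.33, 2.14 and 2.20 in PFOS, against 1.68, 1.86, 1.79 and 2.01 in control. It rose 1.31-fold (change 0.39, SE 0.09, limma adjusted p = 0.0496), a call that held in 5 of 25 settings and without 1 of the 8 arrays. Idh3a, of the NAD-linked isocitrate dehydrogenase, was at 0.23 (SE 0.08, adjusted p = 0.148).

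Among 16 tested genes of other electron entry, coupling and transport none rose and 1 fell (6.25% called, against 3.97% of all features), with a median of 0.01. Coq10a, a coenzyme Q-binding protein, had -0.67, -0.37, -0.48 and -0.40 in PFOS, against 0.43, 0.43, 0.68 and 0.29 in control, and fell 1.91-fold (change -0.94, SE 0.11, limma adjusted p = 0.00265). The calls of Coq10a and Pprc1 held in 23 of 25 settings each and without any 1 array, though not within a single slide row, which holds 2 arrays of each group. Etfa, a subunit of the flavoprotein that passes electrons from fatty acid oxidation to coenzyme Q, was at 0.32 (SE 0.08, adjusted p = 0.0765). Its partner subunit Etfb was at 0.00 (SE 0.08), and Etfdh was at 0.60 (SE 0.22, adjusted p = 0.173). No difference between these lists and the subunits was tested.

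**Figure D4:**
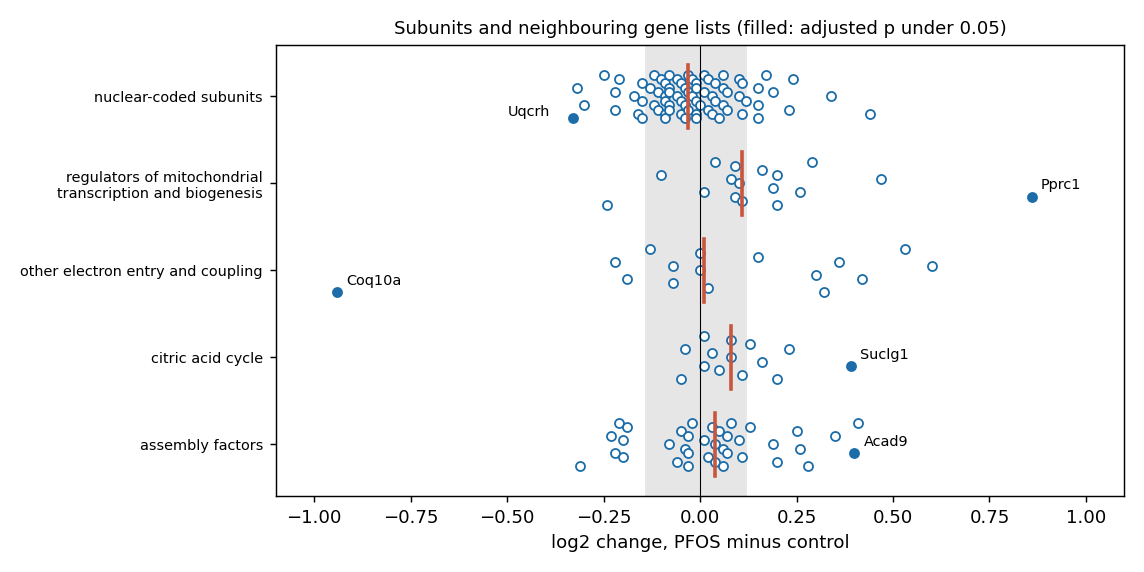
Log2 change (PFOS minus control, x axis) of each tested gene of the subunit set and of 4 neighbouring lists, with a red bar at each median filled points for genes that passed the test, the grey band for the quartiles of all features, and heights within a row set only to keep points apart. The subunits stay between -0.33 and 0.44 around a median of -0.03, while Pprc1 at 0.86 and Coq10a at -0.94 lie outside that range.

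Markers of cell types were read beside these values, and no marker of any list passed the test in limma. At an unadjusted p under 0.05, 1 hepatocyte marker was higher and 3 lower in PFOS, 2 endothelial markers were lower, 1 stellate marker was higher and 1 lower, and 1 cholangiocyte marker was higher. These were 44.4% of the tested hepatocyte, 66.7% of the endothelial, 33.3% of the stellate and 33.3% of the cholangiocyte markers, against 19.9% of all features. No Kupffer cell, lymphocyte, erythroid or muscle marker passed that threshold. In the ratio all 6 Kupffer cell, 3 endothelial, 4 erythroid and 2 lymphocyte markers tested were below 0, against 52.3% of all features. Their median changes were -0.27, -0.46, -0.41 and -0.13. All 3 cholangiocyte markers tested were above 0 (median 0.11), and of the stellate markers 2 were above 0 and 4 below. The lymphocyte marker Cd3e failed the filter on dim probes. The summed Cy5 signal of the 9 hepatocyte markers was 847000 to 904000 units in PFOS and 932000 to 1000000 units in control, so the groups did not overlap. Such a sum leans on its brightest genes, and the median Cy5 change of these markers was 0.04. Apoa1 had a change of -1.80 in Cy5 alone but -0.38 in the ratio. In the reference channel 1 hepatocyte marker was called, and the largest change in size was 1.38. In the ratio these 9 markers had a median change of -0.12, with 4 above 0 and 5 below. Whether the hepatocyte signal differed between the groups was not tested. The 3 tested endothelial markers summed to 3100 to 4140 in PFOS and 3890 to 5880 in control, the 6 Kupffer cell and macrophage markers to 16800 to 28500 in PFOS and 19400 to 30900 in control, and the 4 erythroid markers to 115000 to 141000 in PFOS and 94800 to 247000 in control. Those 3 sums overlapped between the groups. The 6 stellate cell and fibroblast markers summed to 8260 to 9190 in PFOS and 8410 to 11100 in control, the 3 cholangiocyte markers to 696 to 1020 in PFOS and 583 to 723 in control, and the 2 lymphocyte markers to 860 to 1210 in PFOS and 1070 to 1130 in control. Acta1, the 1 muscle marker that passed the filter, read 99.9 to 101 in PFOS and 99.7 to 109 in control. The part of these cell types in the members' values was not tested.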

How the data were processed

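Liver mRNA of 4 PFOS and 4 control rats was measured on two-colour arrays. The authors deposited the spot intensity of each channel (median signal and median local background) as the scanner software gave it (Agilent Feature Extraction 10.7.3.1, per the submitters' processing notes). The authors also deposited a table of log2 ratios, made by steps not given in the sources used here. Per array it correlated at 0.995 to 0.997 with log2 Cy5 over Cy3, which gave its scale and direction. Its medians were -0.0518, -0.0609, -0.061 and -0.0527 for PFOS 1 to 4 and -0.048, -0.0539, -0.0518 and -0.0568 for control 1 to 4, and its centring stays unknown. Sample RNA was in Cy5 throughout, per the labels' protocols, with no dye swap.

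Of 62976 spots per array 4259 were control spots. Mean signals had been planned, but the files held medians, and these were used. Normexp (offset 50) removed background, loess with control spots at weight 0 was run within arrays, 733 to 991 outlier spots per array were dropped, none was saturated, and a probe's spots were averaged. RefSeq (GRCr8) named 18004 of 30367 probes, and 12363 kept the files' names. A probe entered if Cy5 was well above background on 4 or more of the 8 arrays, and a gene's brightest probe in Cy5 stood for it. Groups were compared with limma 3.58.1 (lmFit, eBayes; p two-sided, Benjamini-Hochberg over all features) in R 4.3.3 with data.table (version 1.17.8). The limma fit and the adjustment of p were tested on simulated log2 ratios, and the steps before them were not.

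Members and lists were chosen with earlier results of these data known, so no p is given for a list. Genes named are called members, the 2 highest and 2 lowest of each complex, all of complex II, Cycs, tissue isoforms, and of each neighbouring list the called genes and the 2 with the smallest p. Others, such as Yy1, Gabpa, Tfam, Atp5mc2, Uqcrfs1, Uqcrc2, Etfb and Etfdh, were named after their values were seen. Replicates are separate rats, numbered in accession order. As alternatives, background was left in, or normexp run at offset 0, or the software's processed signals taken. Arrays were centred on the median or scaled to each other. The liver channel, the authors' table, other filters on dim probes, the mean over a gene's probes, array weights, eBayes with trend and robust, blocks for slide row and for slide column, and leaving out single arrays were tried too. The slide rows alone were added after seeing the data.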

Additional observations from a re-analysis of the deposited data

Results flagged for a closer look

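In 4 of 150 groups of 4 arrays checked among the members, 1 array stood apart from the other 3 by more than Dixon's 95% critical value for the gap as a share of the range. Chance alone marks about 1 in 20 such groups. Ndufa5 had 1.05 on PFOS 1, against 1.34 to 1.40 on the other PFOS arrays. Ndufab1 had 0.94 on control 1, against 1.19 to 1.23 on the other control arrays. Ndufs5, an accessory subunit of complex I, had 1.24 on PFOS 1, against 1.07 to 1.09 on the other PFOS arrays. Uqcr11, a small subunit of complex III, had 0.94 on PFOS 4, against 0.78 to 0.79 on the other PFOS arrays.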

How the results depend on the processing

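The direction of Uqcrh was kept in all 25 settings, and its call in 9. No member was called with normexp at offset 0, median centring, scaling between arrays, trend and robust options, slide row or column as a block, without any 1 array, or within either slide row (0 in each). All features called numbered 604, against 239 with median centring, 331 with scaling, 268 with slide column as a block, 350 to 519 with 1 array left out, and 93 and 32 within slide rows 1 and 2. The share of calls higher in PFOS was 46.0%, and 54.0% with median centring. The members' median became 0.01 with median centring and 0.01 with scaling, so its sign is not settled. Under the same 2 settings complex I had 0.02 and 0.01, complex II 0.11 and 0.12, and complex V 0.00 and -0.02. Complex II had 0.04 in the authors' table. Complex III had 0.10 and -0.09 within slide rows 1 and 2. With 1 array left out, the medians were -0.05 to -0.01 for all members, -0.03 to -0.01 for complex I, 0.02 to 0.10 for complex II, -0.02 to 0.04 for complex III, -0.08 to -0.02 for complex IV and -0.06 to -0.02 for complex V. The cause of these shifts was not tested. No paired analysis was possible because the labels give the groups no shared replicate numbers. Signal over background limits Cox6a2, Cox8b and Cox7c, which were dim on some arrays. Uqcrq was dim too, though well above background on all 8 arrays.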
